A study of Mus musculus with 109 samples.

Results

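The regions described here are stretches of the microglial genome that were accessible at each of 3 times after lipopolysaccharide (LPS), a bacterial cell wall component that triggers inflammation. Peaks of 20 ATAC-seq libraries were merged where they overlapped by 1 bp or more, which gave 59636 regions. A merged region was kept when at least 2 of 4 samples had a peak at 12 h, at least 2 of 4 at 24 h and at least 2 of 4 at 2 weeks. This left 8075 regions, 13.5% of the total. The regions were therefore chosen by the peak calls of the 12 LPS libraries, and their presence and height after LPS are given as a description with no test.

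Microglia were taken from the brains of wild-type mice (labelled C57B/6 WT) and isolated with a cell sorter by their CD45 and CD11b. The treated mice had received 2.5 mg/kg LPS into the peritoneum and were taken 12 h, 24 h or 2 weeks later, with 4 libraries at each time. Untreated mice gave 4 numbered samples, each with a pair of libraries under different S numbers, which are called the first and the second library here and were counted as 1 sample. The labels give no age for these libraries and do not say whether each number is a separate animal, so spreads between samples may be partly technical. The sort was not checked against marker genes, because no mm9 annotation was used to tie regions to genes.

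ATAC-seq uses a transposase that inserts sequencing adapters where DNA is not covered by nucleosomes, so tags pile up at active promoters, enhancers and sites held by bound factors. Microglia, the resident macrophages of the brain, carry a set of such sites that marks their identity, and inflammatory signals add and remove others. Sites that are accessible whatever the state of a cell commonly include promoters of widely used genes and insulator sites. Which of the present regions belong to these classes was not analysed here, and the regions are given by their position in mm9.

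The lists differed far more in size than in sequencing depth. LPS libraries held 6208254 to 17922220 tags and 1185 to 35435 peaks, and untreated libraries held 4159328 to 8598044 tags and 4 to 7654 peaks. The share of tags in peaks ran from 0.32% to 5.92% after LPS and from 0.00% to 1.43% without treatment. Libraries 2 at 12 h, 1 and 4 at 2 weeks, and all untreated libraries had small lists, with under 10000 peaks each. Library 1 at 24 h stood apart from the other 24 h libraries in its pattern of heights, as described further on, and the comparisons of 24 h with other times are given with and without it.

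A region of the set had a peak in a median of 8 of the 12 LPS libraries. The smallest number that the rule allows, 6, was found for 947 regions, and 124 regions (1.54%) had a peak in all 12. The times contributed unequally. At 24 h, 3650 regions (45.2%) had a peak in all 4 samples, against 1229 (15.2%) at 2 weeks and 371 (4.59%) at 12 h. At 12 h, 4732 regions (58.6%) had a peak in only 2 samples.

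Which libraries held the regions moved with the length of their lists. The 8 LPS libraries with at least 15000 peaks each (libraries 3 and 4 at 12 h, all 4 at 24 h, and 2 and 3 at 2 weeks, called the deep libraries) had a peak in 71.5% to 95.3% of the regions. Library 1 at 12 h, with 10857 peaks, had 57.1%. Libraries 1 and 4 at 2 weeks, with 7295 and 6342 peaks, had 34.7% and 37.6%, and library 2 at 12 h, with 1185 peaks, had 8.14%. The untreated libraries fell on the same line as LPS libraries of like size: the first library of untreated sample 1 had 7654 peaks and a peak in 36.7% of the regions. The number of regions rested on 4 libraries. It was 3695 without library 3 at 12 h, 4482 without library 4 at 12 h, 4079 without library 2 at 2 weeks and 3917 without library 3 at 2 weeks.

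**Figure D1:**
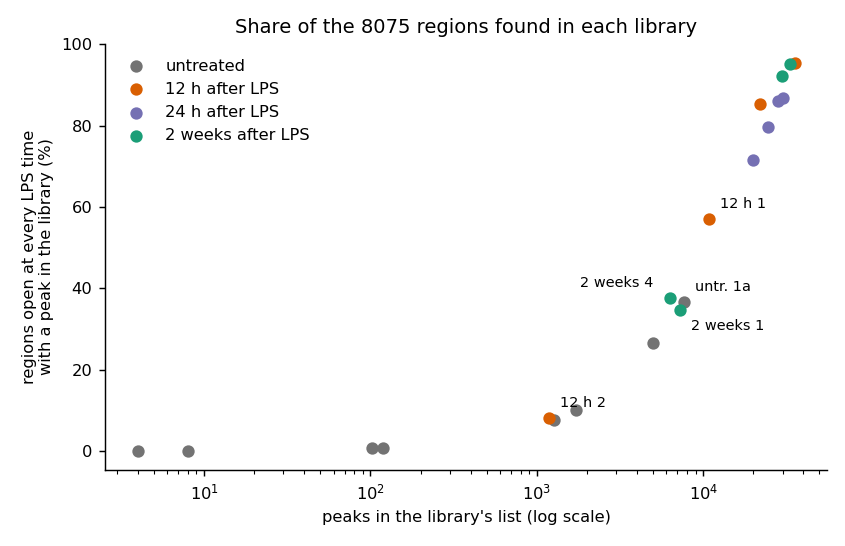
Each point is 1 of 20 libraries; the horizontal axis gives the number of peaks in its list on a log scale and the vertical axis the percent of the 8075 regions with a peak in it. Longer lists mostly hold a larger share, with several exceptions, such as libraries 4 and 1 at 2 weeks (6342 and 7295 peaks). The largest untreated list (7654 peaks, 36.7%) lies beside libraries 1 and 4 at 2 weeks (34.7% and 37.6%).

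The edge of the rule is soft. The 947 regions with exactly 2 samples at each time had a median Normalized Tag Count of 17.9 over the deep libraries. Normalized Tag Count is the number of tags at a peak, scaled to 10000000 tags in the library. Another 3491 regions missed the rule only because a single sample had a peak at 12 h, and their median was 12.1. For 970 regions that missed it at 24 h the median was 16.6, and for 2043 that missed it at 2 weeks it was 15.1. The share with a peak in an untreated sample was 33.4% for the regions just inside and 31.1%, 34% and 31.5% for these sets just outside.

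The regions were wider than other merged regions, with a median of 154 bp (quartiles 137 and 168, range 93 to 488) against 111 bp. Peaks within a list have 1 fixed width, between 77 and 172 bp per the file headers, so a merged region widens as lists of different peak width and centre are joined. The centres of the LPS peaks joined in a region spanned a median of 51 bp (quartiles 32 and 61). Regions found in 6 LPS libraries had a median width of 141 bp, and those found in all 12 had 171 bp. Together the regions covered 1.26 Mb.

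They were spread over all chromosomes with peaks. On autosomes they made up between 12.3% (chromosome 11, and likewise chromosome 5) and 15.2% (chromosome 14) of the merged regions, and on X they made up 10.1%. Neighbouring regions of the set started a median of 94805 bp apart. Another region of the set lay within 10 kb of 18.5% of them, and a region of the set lay within 10 kb of 17.8% of the other merged regions. Within 1000 bp these shares were 2.15% and 3.15%, and within 100000 bp they were 73.8% and 73.8%. The densest window of 1 Mb, chr10:80000001-81000000, held 25 of the set among 106 merged regions. The next, chr4:149000001-150000000, held 21 among 104.

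The untreated libraries were not used by the rule. An untreated peak in at least 1 of 4 samples was found at 4237 of the regions (52.5%), against a background of 18% over all 58923 merged regions with an LPS peak. By sample, the share was 48.0% in sample 1, 14.9% in sample 2, 0.0495% in sample 3 and 1.11% in sample 4, and over all regions with an LPS peak it was 16%, 4.24%, 0.0136% and 0.292%. The share was thus higher in the set in 4 of 4 samples. It rested on sample 1: without that sample it was 15.3%. Most of these regions, 3351, had a peak in 1 untreated sample, 833 had one in 2 samples, 52 in 3 and 1 in all 4. The remaining 3838 regions had no untreated peak, which with lists this short does not show that they were closed before LPS.

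The same share was lower in regions found at fewer times. It was 10.9% for 994 regions called in at least 2 samples at 12 h and at 24 h but in none at 2 weeks. It was 7.62% for 1587 regions called in at least 2 samples at 24 h and in none at the other times, and 10.9% for 1456 regions called so at 2 weeks alone. Regions called in at least 2 samples at 2 of the 3 times lay between: 29.9% for 24 h with 2 weeks (4589 regions), 24.7% for 12 h with 24 h (3037) and 32.2% for 12 h with 2 weeks (1364).

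Much of this order went with how many LPS libraries held a region. Among the regions of the set the untreated share climbed from 33.4% for those in 6 LPS libraries through 49.5% for those in 8 to 66.9% for those in 10 and 95.2% (118 of 124) for those in all 12. At an equal number of LPS libraries the set and the rest were close. With 6 libraries the shares were 33.4% of 947 regions in the set and 30.8% of 2761 others, and with 7 they were 41.6% of 1729 and 34.2% of 1488. With 8 libraries they were 49.5% of 1930 and 44.8% of 444, and with 9 they were 56.9% of 1734 and 46.1% of 89. The set was higher at each of these numbers, by 2.58 to 10.8 percentage points, and these differences were not tested.

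**Figure D2:**
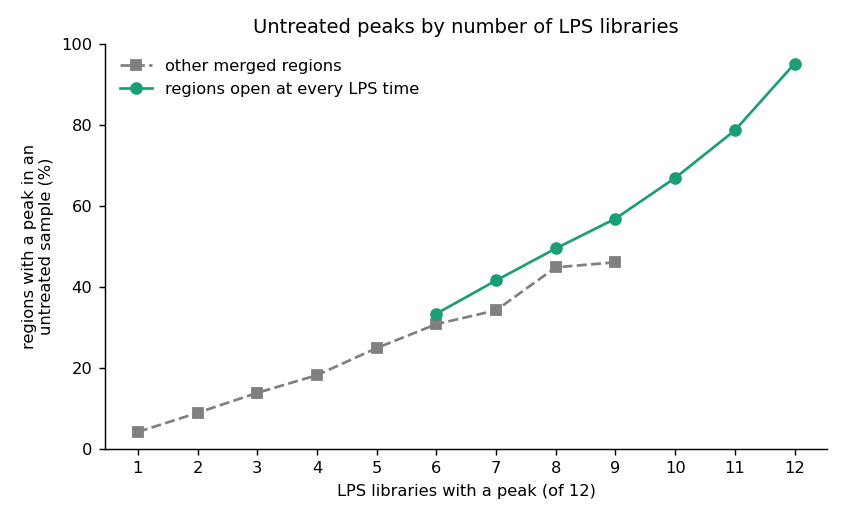
The horizontal axis gives the number of LPS libraries (of 12) with a peak in a region and the vertical axis the percent of such regions with a peak in at least 1 of 4 untreated samples, for the 8075 regions of the set (circles) and all other merged regions (squares). Both lines climb together, from 33.4% and 30.8% at 6 libraries to 56.9% and 46.1% at 9, and the set reaches 95.2% at 12.

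Peak height in the untreated libraries was higher inside the set in 3 of 4 samples, by amounts that varied widely. In sample 1 the median Normalized Tag Count inside and outside the set was 15.1 and 14 in the first library and 16.9 and 17.6 in the second. In sample 2 it was 15.3 and 15.3, then 15.9 and 16.6. In sample 4 it was 23.2 and 22.2, then 31.3 and 27.6. Sample 3 had 25.6 and 19.3, then 129.65 and 18.75, from only 6 peaks inside and 6 outside over both libraries. The log2 difference, averaged over a sample's libraries, was 0.03, -0.03, 1.18 and 0.12 in samples 1 to 4, with a mean of 0.32 ± 0.57 (SD, n = 4). An exact two-sided sign-flip permutation test gave p = 0.375, and the smallest p that 4 samples allow is that of 2 in 16 sign patterns, which cannot pass 0.05. Without sample 3 the mean was 0.04.

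After LPS the regions held taller peaks than the rest of a list in 11 of 12 libraries. The median Normalized Tag Count of peaks in the set was 10.4, 20.1, 14.8 and 13.4 in libraries 1 to 4 at 12 h, where peaks outside had 9.43, 19.7, 9.21 and 14.3. At 24 h it was 21.6, 16, 15.4 and 18.2, against 16.4, 10.3, 11.2 and 12.0 outside. At 2 weeks it was 15.7, 14.7, 16.1 and 13.9, against 8.39, 12.9, 11 and 9.74. The exception was library 4 at 12 h. The findPeaks Score, the peak caller's own ranking of a peak, had medians of 13 to 23.5 inside and 12.5 to 16 outside over these libraries. Ranked within its list, the median peak of the set stood between percentile 47.3 (library 4 at 12 h) and 72.2 (library 1 at 2 weeks). The focus ratio is the share of tags that lie where a sharp peak would put them. It was higher inside the set in 12 of 12 LPS libraries, with medians of 0.791 to 0.840 inside and 0.707 to 0.803 outside. It was also higher inside in 8 of 8 untreated libraries, which are pairs from 4 samples. Those of untreated sample 3 held only 4 and 2 peaks inside the set.

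**Figure D3:**
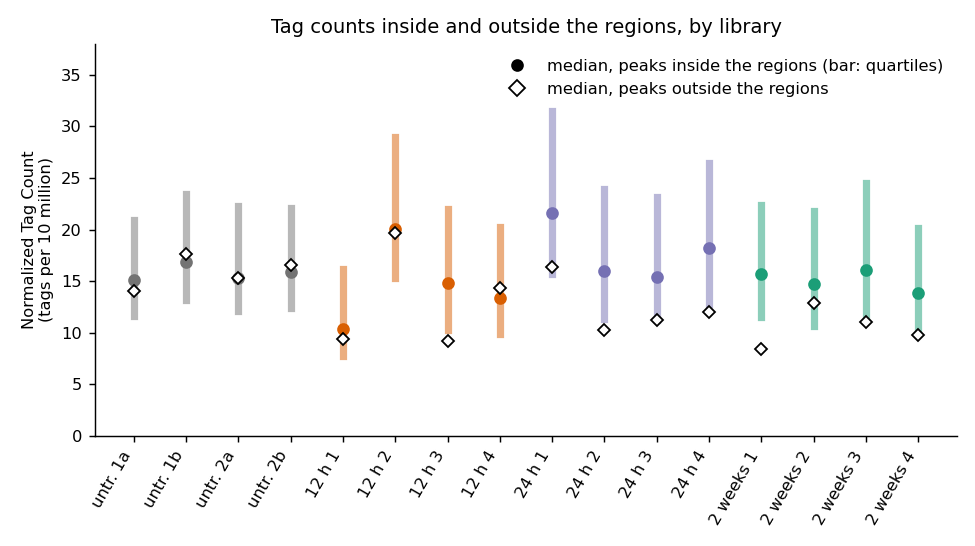
For the 16 libraries with at least 1000 peaks, circles give the median Normalized Tag Count of peaks inside the set with bars from the lower to the upper quartile, and diamonds the median of peaks outside it; a and b are the first and the second library of an untreated sample. The circle lies above the diamond in 11 of 12 LPS libraries, and in library 1 of 24 h the set has its highest median, 21.6.

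Between times the typical height differed by less than the larger spread between libraries. The mean over libraries of the median tag count was 14.7 ± 4.06 (SD, n = 4) at 12 h, 17.8 ± 2.80 at 24 h and 15.1 ± 0.993 at 2 weeks. The ranges overlapped: 10.4 to 20.1, 15.4 to 21.6 and 13.9 to 16.1. Over the 124 regions with a peak in every LPS library the means were 19.4 ± 2.82, 26.3 ± 3.96 and 24.9 ± 1.08 (SD, n = 4 each), and there the 12 h libraries (16 to 22.9) lay below those of 24 h (23.6 to 32.1). Without library 1, the 24 h means were 16.5 ± 1.47 over the set and 24.4 ± 1.01 over the 124 regions (SD, n = 3). The order of 12 h and 24 h turned with the scale: the log2 difference of 24 h over 12 h was 0.31 as deposited and -0.10 once each library was divided by its median over those 124 regions. A tag count from a bulk library does not tell a site that is accessible in more cells from one that is more accessible per cell.

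The tallest of all the regions, chr13:9010959-9011125, had the highest tag counts of every LPS list. Its values were 263.1, 334.2, 322.5 and 308.7 at 12 h, 492.8, 288.0, 348.6 and 323.4 at 24 h, and 316.4, 307.3, 276.9 and 272.6 at 2 weeks. In untreated samples 1, 2 and 4 the first libraries had 360.0, 371.7 and 167.6 and the second 398.0, 369.0 and 169.5, and sample 3 had no peak there. The times overlapped, with means of 307 ± 31.1, 363 ± 89.9 and 293 ± 21.8 (SD, n = 4 each). Next in mean rank among regions with a peak in all 12 LPS lists was chrX:139917532-139917698, with 140.6 to 277.1 at 12 h, 144.9 to 200.5 at 24 h and 118.6 to 186.5 at 2 weeks. Its highest values, 363.4 and 384.7, came from untreated sample 4, whose libraries had 0.05% of their tags in peaks.

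A single region had a peak in all 20 lists, chr9:3012464-3012678. Its tag counts were 103.4, 174.0, 107.1 and 143.0 at 12 h, 138.3, 104.4, 85.3 and 99.4 at 24 h, and 69.7, 110.7, 74.5 and 95.1 at 2 weeks. The untreated libraries of samples 1 and 2 had 100.6 to 113.8, those of sample 4 had 177.7 and 173.1, and those of sample 3 had 255.1 and 236.8. It was thus highest in the libraries with the fewest peaks, 8 and 4 in all, which had 0.00% of their tags in peaks. The highest LPS value, 174.0, was in library 2 at 12 h, which had 0.32% of its tags in peaks. How the height of this region went with that share was not tested. No list of artefact-prone regions was applied here, and the part that repeated sequence plays in these tallest regions was not tested.

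Height did not secure a place in every list. The region chr19:61275630-61275726 had tag counts of 158.5 and 142.0 in libraries 3 and 4 at 12 h, 232.0, 141.7 and 163.6 in libraries 1, 2 and 4 at 24 h, and 196.6 and 187.8 in libraries 2 and 3 at 2 weeks. It was missing from the list of library 3 at 24 h, from libraries 1 and 2 at 12 h and 1 and 4 at 2 weeks, and from every untreated list. The regions chr16:55934786-55935050 (110.3 to 204.1 after LPS, absent from library 2 at 24 h and library 1 at 2 weeks) and chr15:94373851-94373976 (86.6 to 135.2, absent from library 1 at 24 h among the deep lists) were also tall and missing from lists. Of the 81 tallest regions by mean rank, 55 (67.9%) were missing from at least 1 of the 8 deep lists. In the whole set only 2899 regions (35.9%) were in all 8, so the tallest were missing about as often as the set. Mean rank was taken over the lists that held a region, so a missing call did not lower it. Split into 10 equal groups by mean rank, regions were present in 78.8% of the deep lists in the lowest group, 89.0% in group 7 and 87.3% in the highest. The peak caller dropped between 67.2% and 96.4% of its candidate peaks in the LPS libraries at a step that set each library against itself as input, per the file headers, and the part of this step in the missing calls was not tested.

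At the other end, the lowest region by mean rank was chr14:61907568-61907734, with 5.02 and 7.42 in libraries 3 and 4 at 12 h, 5.32 and 5.79 in libraries 2 and 3 at 24 h, and 6.16 and 5.48 in libraries 1 and 3 at 2 weeks. The regions chr6:99550325-99550443, chr9:35331854-35331992, chr9:115613482-115613638 and chr18:77947279-77947417 followed, with values between 4.97 and 9.17. All 5 sat in 6 or 7 LPS lists, and of them only chr9:115613482-115613638 had an untreated peak, at 8.14 in sample 1. The widest region was chr13:94124895-94125382, at 488 bp, with 14.8 to 34.6 at 12 h in 3 libraries, 21.6 to 42.9 at 24 h and 14.2 to 23.0 at 2 weeks. The regions chr4:47487108-47487590 (483 bp, tag counts 50.2 to 91.8 after LPS) and chr1:121395224-121395692 (469 bp, 16.5 to 32.1 after LPS) came next in width.

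Change between 24 h and 2 weeks was small for nearly all regions that could be followed. In 2899 regions (35.9%) all 8 deep libraries had a peak, and each library was centred on its median log2 tag count over these regions. A region without a call in any of these libraries was left out, so this choice itself favours small changes. The mean of libraries 2 and 3 at 2 weeks lay within 1 log2 unit of the mean of the 4 libraries at 24 h for 2868 of them (98.9%). It was higher by at least 1 for 22 and lower by at least 1 for 9. Without library 1 at 24 h, 2832 (97.7%) lay within 1 unit, 35 were higher and 32 lower. Both 2-week libraries lay above all 4 of 24 h for 392 regions, 13.5% of the 2899 tested, and below all 4 for 300, or 10.3%. With so few libraries some regions lie without overlap by the order of libraries alone, and these shares were not tested. On the tag counts as deposited, without centring, these counts were 82 and 616, and the medians of the 24 h libraries (24.2, 18.3, 17.0 and 20.3) were mostly above those of 2 weeks (16 and 18.3). The balance of higher and lower regions therefore depends on the scale. The clonal fold, which compares tags with the distinct positions expected for them, had medians of 1.06 to 1.11 in the set at 2 weeks and 0.95 to 0.97 in the other LPS libraries, so it moved with time, and its part in these differences was not tested.

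Library 1 at 24 h was less like its group than the other three were. Spearman's rho over the 2899 regions was 0.86 to 0.89 among libraries 2, 3 and 4 at 24 h, and 0.74 to 0.80 between each of them and library 1. Library 1 had 0.79 and 0.85 with libraries 2 and 3 at 2 weeks. These coefficients describe heights across regions that share their libraries, and regions are not independent replicates. Outside the set it differed in the same way: of 1105 regions with a peak in at least 2 samples at 2 weeks, none at 12 h and a single list of 24 h, that list was library 1 for 518 (46.9%). Without it, 559 regions were higher and 531 lower at 2 weeks without overlap, 1090 in place of 692. Leaving out any other 24 h library gave 815 to 872. The number of regions in the set changed less, to 7234 without library 1.

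Libraries that had no part in choosing the 392 and the 300 regions separated them in the same direction at 2 weeks. In library 1 at 2 weeks the median centred log2 tag count was 0.36 for those of the 392 with a peak (153) and -0.09 for those of the 300 (125). In library 4 it was 0.36 (184 regions) and -0.15 (127 regions). At 12 h the gap was smaller: the difference between the sets was 0.15, 0.16, 0.00 and 0.05 in libraries 1 to 4. The untreated libraries differed in the direction of 2 weeks, by 0.26 and 0.23 in the libraries of sample 1 and by 0.49 and 0.37 in those of sample 2, where the 2-week libraries 1 and 4 differed by 0.45 and 0.51. In sample 1 the medians were 0.20 (203 regions) and -0.06 (134) in the first library and 0.14 (162) and -0.09 (98) in the second. In sample 2 they were 0.36 (72 regions) and -0.13 (41) in the first and 0.24 (60) and -0.13 (19) in the second. In the second library of sample 2 the regions of neither set also had a median of -0.13, so the lower set did not differ from them there. Regions taller at 2 weeks than at 24 h were thus also the taller ones in both untreated samples that could be read, and these are 2 samples with no test. An untreated peak was present at 70.4% of the 392, 61.7% of the 300 and 63.4% of the other 2207. With the sets drawn without library 1 at 24 h, the shares were 71.7% of 559, 58.8% of 531 and 63.4% of 1809.

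When the sets were drawn without library 1 of 24 h, the heights in that library had no part in the choice. Each region still needed a peak in that library, so it was not fully independent of the choice. Its median was 0.11 over the 559 higher regions and -0.08 over the 531 lower ones, on the side of the 2-week and not of the 24 h libraries. The untreated differences kept their sign, at 0.22 and 0.18 in the libraries of sample 1 and 0.41 and 0.48 in those of sample 2. The differences in the 12 h libraries were -0.02, 0.00, -0.18 and -0.14.

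**Figure D4:**
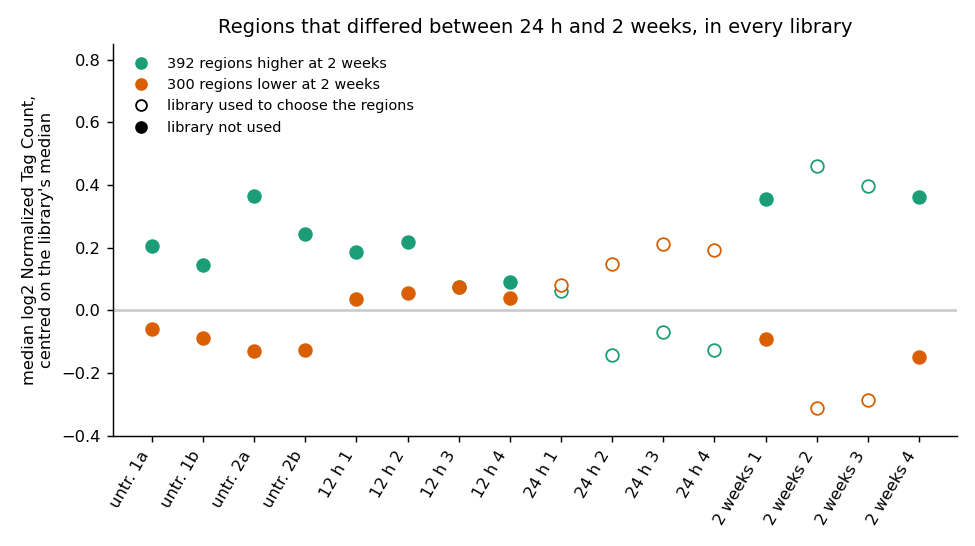
The vertical axis gives the median centred log2 Normalized Tag Count in each library. Green marks the 392 regions higher and orange the 300 lower at 2 weeks than at 24 h. Open circles are libraries whose heights were used to choose them. Filled circles are libraries whose heights were not, where only regions with a peak count. The peaks of the filled LPS libraries still counted in the rule that chose the set. Green lies above orange in libraries 1 and 4 at 2 weeks (0.36 against -0.09, 0.36 against -0.15) and in the untreated libraries (0.20 against -0.06 in the first of sample 1), while at 12 h the gap is at most 0.16.

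Across all heights the untreated samples were also most like library 2 at 2 weeks. For the first library of sample 1, Spearman's rho over 1363 regions was 0.77 and 0.75 with libraries 2 and 3 at 2 weeks, 0.72 and 0.71 with libraries 3 and 4 at 12 h, and 0.74, 0.70, 0.71 and 0.67 with libraries 1 to 4 at 24 h. For the first library of sample 2, over 421 regions, it was 0.70 and 0.65 at 2 weeks, 0.59 and 0.64 at 12 h, and 0.61, 0.56, 0.59 and 0.52 at 24 h. In both, library 4 at 24 h was the least like. For the second libraries of samples 1 and 2, rho with library 2 at 2 weeks was 0.73 and 0.73. There library 1 at 24 h (0.69 and 0.64) stood above library 3 at 2 weeks (0.68 and 0.62). The gaps are small, and each value comes from 1 pair of libraries.

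Single regions were followed over all 12 LPS libraries among the 124 with a peak in each, and those named were picked as the largest changes, so no test is given. The largest rise from 24 h to 2 weeks was at chrX:6883790-6884061. Its tag counts were 24.9, 15, 14.3 and 17.8 at 24 h and 51.8, 51.6, 50.4 and 50.6 at 2 weeks, after 11.8, 26.6, 17.9 and 22.8 at 12 h. The first libraries of untreated samples 1 and 2 had 8.72 and 8.91 there. All 4 libraries at 2 weeks thus lay above every other library with a peak, untreated ones included, with a centred log2 change of 1.61 (1.68 without library 1 at 24 h). At chr5:122314554-122314694 the values were 19.0, 8.98, 8.11 and 11.2 at 24 h and 22.1, 21.8, 29.2 and 23.6 at 2 weeks, a change of 1.17 (1.33 without library 1 at 24 h), and 12 h had 6.40 to 12.9 with no untreated peak. At chrX:4545325-4545613 the change of 1.02 (1.56 without library 1 at 24 h) came with overlap, since library 1 at 24 h had 51.8 where the other three had 5.32, 15.1 and 9.11, and 2 weeks had 21.0 to 32.9.

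Falls were smaller. At chr11:54968553-54968754 the tag counts were 52.4, 37.2, 46.7 and 35.2 at 24 h and 42.8, 21.8, 25.6 and 14.2 at 2 weeks, which overlap, with a centred log2 change of -0.74, and -0.74 without library 1 at 24 h. At chr7:3777310-3777459 they were 19.7, 25.6, 25.5 and 28.6 at 24 h and 17.9, 16.5, 12.1 and 13.9 at 2 weeks, without overlap, with a change of -0.66, and -0.86 without library 1 at 24 h. The 12 h libraries had 12.9 to 19.8 there, overlapping the range of 2 weeks. At chr4:122575652-122575840 the change was -0.63 (-0.59 without library 1 at 24 h), from 27.5, 18.3, 15.4 and 24.0 to 16.2, 8.89, 16.8 and 11.2. Over all 124 regions, the 4 libraries at 2 weeks lay above the 4 of 24 h after centring for 11 and below them for 5, and without library 1 at 24 h for 18 and 13.

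**Figure D5:**
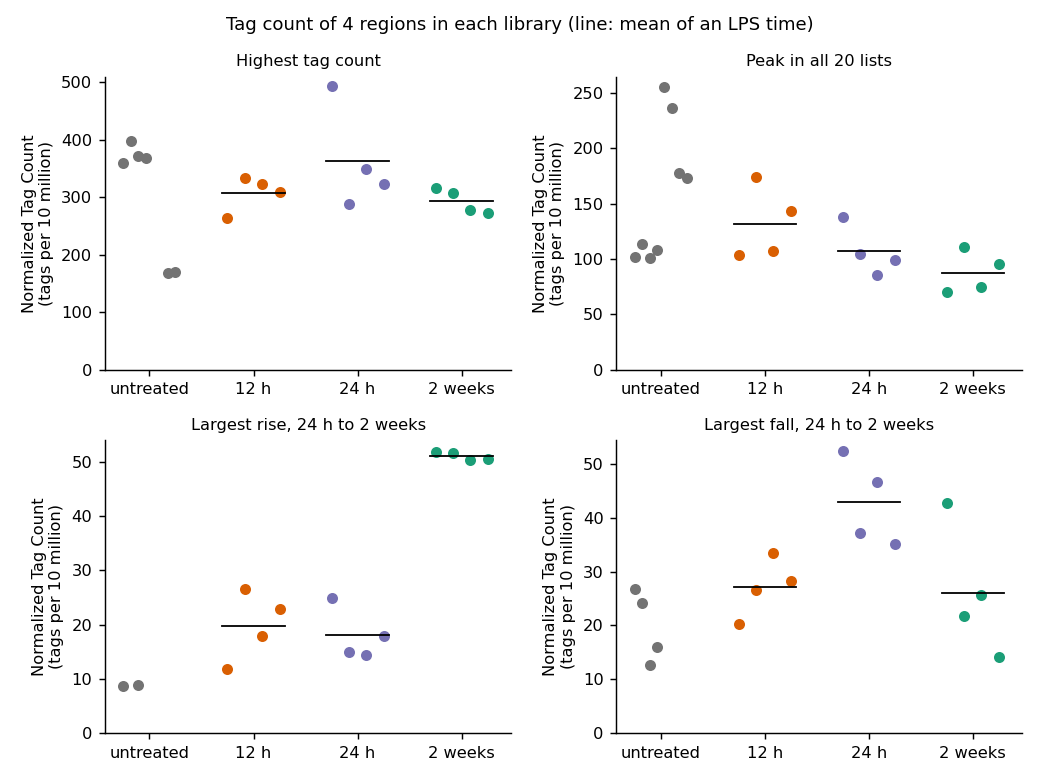
Each panel plots the Normalized Tag Count (per 10000000 tags) of 1 region in every library with a peak there, by time, with a line at the mean of each LPS time. The region with the highest tag counts and the one with a peak in all 20 lists overlap between times. The other panels show the largest changes among the 124 regions in every LPS list. There the largest rise has 50.4 to 51.8 at 2 weeks against 14.3 to 24.9 at 24 h, and the largest fall overlaps between 24 h and 2 weeks.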

How the data were processed

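The 20 ATAC-seq peak lists were deposited by the authors, 1 per library, with positions in mm9 per the submitters' processing notes. Per the file headers, HOMER findPeaks called peaks in its factor style with a fragment length of 300, a false discovery rate of 0.001 and at least 4-fold more tags than in the input and the local surroundings, and the input was the library itself. Aligner and HOMER version were not given in the sources used here. The deposited Normalized Tag Count is a signal, counted per 10000000 tags of the library, and the deposited findPeaks Score is a score of the caller. Fold and p columns of the lists and the RNA tables were not used.

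Peaks were merged and counted with Python 3.11.15 (pandas 2.3.3, numpy 2.4.6) and drawn with matplotlib 3.10.9. For heights given by region, the highest tag count was taken where a list named a region more than once. Medians over peaks inside and outside the set counted every listed peak. In the deep libraries 37.2% to 49.8% of peaks inside the set shared their position with another listed peak, and 13.2% to 29.7% outside. Inside the set it was 0% in library 2 at 12 h, and 2.04% and 1.24% in libraries 1 and 4 at 2 weeks. The part of these repeats in the comparisons was not tested. Members and sets were chosen with earlier results of these data known. Regions were named by rule: the 5 highest and 5 lowest by mean rank within LPS lists of at least 1000 peaks, the 3 widest, the 3 largest rises and falls from 24 h to 2 weeks among regions in every LPS list, and up to 3 in most lists. The 8 deep libraries were set after the data were seen. The sign-flip test ran over 4 untreated samples, with both libraries of a sample averaged. Merging, rule and test were tested on simulated data. Gene annotation, sequence and gene groups of the regions were planned but not analysed here, since no mm9 genome or annotation was used. On chromosome 1 peaks reach position 197067957, past the last gene of the GRCm38 table at 195291439, so that table's coordinates were not used.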

Additional observations from a re-analysis of the deposited data

Results flagged for a closer look

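Among 44 groups of 4 values examined, 1 held a sample far from the other three, and chance alone gives about 1 in 20. At the widest region, chr13:94124895-94125382, library 2 at 2 weeks had a Normalized Tag Count of 14.2, where the other libraries at 2 weeks had 22.5 to 23.0.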

How the results depend on the processing

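The number of regions followed the rule closely. It was 1655 with at least 3 of 4 samples at each time, 20613 with at least 1, 1587 when peaks had to overlap by at least 100 bp to be merged, 3531 from peaks scoring at or above their own list's median and 3048 from peaks with a score of at least the median of all LPS peaks (15.5). Leaving out 1 LPS library at a time gave 3695 to 7984. Merging the LPS lists alone gave 8062. No merged region lay on chromosome M, Y or an unplaced sequence, so leaving these out could not change any result. The share with an untreated peak was 71.2% with at least 3 samples and 36.1% with at least 1. It ran from 15.3% to 61.8% when 1 library or untreated sample was left out, the lowest being without untreated sample 1. The log2 difference in untreated height inside and outside the set kept its sign in all 27 other settings, from 0.04 to 0.45 with 1 sample left out, and none could pass 0.05 with 4 samples. The log2 difference in median tag count of 2 weeks over 24 h was -0.23 and ran from -0.29 to -0.13 with 1 library left out. That of 24 h over 12 h ran from 0.15 to 0.47, and was -0.10 after division by the median over regions in every LPS list. The regions without overlap between 24 h and 2 weeks numbered 815 to 1090 with 1 library of 24 h left out, the highest without library 1, where fewer libraries make overlap less likely. Causes were not tested otherwise. Settings on library 1 at 24 h, on the deep libraries and on the tallest regions were chosen after seeing the data. No paired analysis was possible because the comparisons between times came from no test and the labels do not say that libraries with the same number share an animal or day. Untreated lists of 4 to 7654 peaks cannot show that a region was closed.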
